A study of Homo sapiens with 48 samples.

Results

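The interferon response genes described here are 44 human genes chosen by name: receptor subunits and kinases, the STAT and IRF transcription factors, and genes induced by interferon. Every probe set of the array that the platform annotation gives to a single one of these symbols was used. This gave 58 probe sets for 42 genes, of 22215 probe sets and 11963 genes tested in all. Of the measured genes, 29 had 1 probe set and 13 had several. STAT2 and IFI30 were not analysed here, and 2 further probe sets shared with a second gene (IFITM2 with IFITM1, and IRF9 with RNF31) were left out.

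RNA was measured on Affymetrix arrays in 48 samples of K562, an established human leukaemia cell line driven by the BCR-ABL1 fusion kinase. The samples form 8 sets, lettered A to H, each with 3 samples exposed for 24 hours to 1 micromolar imatinib, an inhibitor of that kinase, and 3 mock-treated samples. What a letter stands for is not in the labels, nor is which samples are separate cultures. The p-values therefore rest on the spread among the samples given, and that spread may be technical. Imatinib RNA was isolated on a column alone and mock RNA with Trizol and then the column. This held throughout, and the drug and the way of isolating RNA cannot be told apart. Imatinib targets also carried a reduced amount of spike-in RNA. K562 is known to have lost the cluster of type I interferon genes that lies beside CDKN2A, which limits the line as a model of a cell that makes its own interferon.

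Values are log2 levels as deposited. The mean over probe sets of an array lay between 5.88 and 7.61, in steps between sets, so imatinib was compared with mock inside each set, and levels were not compared across sets. Of 10 markers of K562 and its erythroid lineage, 9 were measured, and all 9 were no lower than the median probe set (6.43) and rose, with a median change of 1.04. Of 22 measured markers of T cells, B cells, myeloid cells and natural killer cells, 7 were no lower than it. The log2 of their summed level ran between 10.04 and 11.58 in imatinib samples and between 10.32 and 11.76 in mock samples. Among these markers 10 rose and 3 fell by the combined fit given below. With each array centred on its median, 4 rose and 3 fell. The 3 that fell were CD3D (fell by 1.73), PRF1 (fell by 1.60) and LYZ (fell by 0.44). Of all genes 41.6% rose and 27.1% fell by the same fit, and 30.5% did each after centring. The part of these markers in the results below was not tested. In bulk RNA, fewer cells with a transcript and less of it per cell cannot be told apart.

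Type I interferons bind a receptor made of IFNAR1 and IFNAR2, which carry the kinases TYK2 and JAK1. These phosphorylate STAT proteins, and a complex of STAT proteins with IRF9 binds the interferon-stimulated response element in promoters of antiviral genes. Interferon gamma binds IFNGR1 and IFNGR2, which carry JAK1 and JAK2, and the STAT dimers formed there bind the gamma-activated site, as in the promoter of IRF1. JAK2 also carries signals of the erythropoietin receptor, so it is of use to red cell precursors apart from interferon.

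After imatinib, the interferon pathway of K562 cells changed at a few points and little elsewhere. JAK2 rose about as far as IFITM2, IFITM1, BST2 and IFITM3, all proteins that restrict viruses at membranes, fell. JAK1 and IRF3 also fell, IRF9, IRF1 and SP110 rose, and most of the classic antiviral genes, among them the IFIT, OAS and MX genes, moved by less than 0.25 on the log2 scale. In the combined fit of 24 imatinib against 24 mock samples, with the set as a factor, 33 of the 58 probe sets rose and 10 fell, or 43 in all (limma, Benjamini-Hochberg adjusted p under 0.05). Of all probe sets 39.3% rose and 25.8% fell by the same test, 65.2% in all, so a call by itself says little. With 1 mean difference per set, 28 rose and 10 fell, against 31.6% and 23.6%. The median change of the members was 0.08 on the log2 scale, against 0.05 for all probe sets.

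The small rises depended on scale. The difference in array medians, imatinib minus mock, was -0.018 in set F and between 0.016 and 0.078 in the other sets. With each array centred on its median, 25 member probe sets rose and 11 fell, 36 in all, against 27.9%, 29.9% and 57.8% of all probe sets, and the members' median change was 0.04, against 0.01 for all. All 8 probe sets that lost their rise on centring had changes of 0.10 or less. Of the 43 probe sets called as deposited, 26 had a change under 0.3 in size and 17 one of at least that. The share of all probe sets at these sizes was not counted. The median size of a change, sign left aside, was 0.14 for the members and 0.12 for all probe sets. After centring it was 0.11 and 0.10. Read by gene through the brightest probe set, 26 of 42 genes rose and 9 fell, against 41.6% and 27.1% of all genes. Centred, 19 rose and 9 fell, against 30.5% of all genes in each direction.

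**Figure D1:**
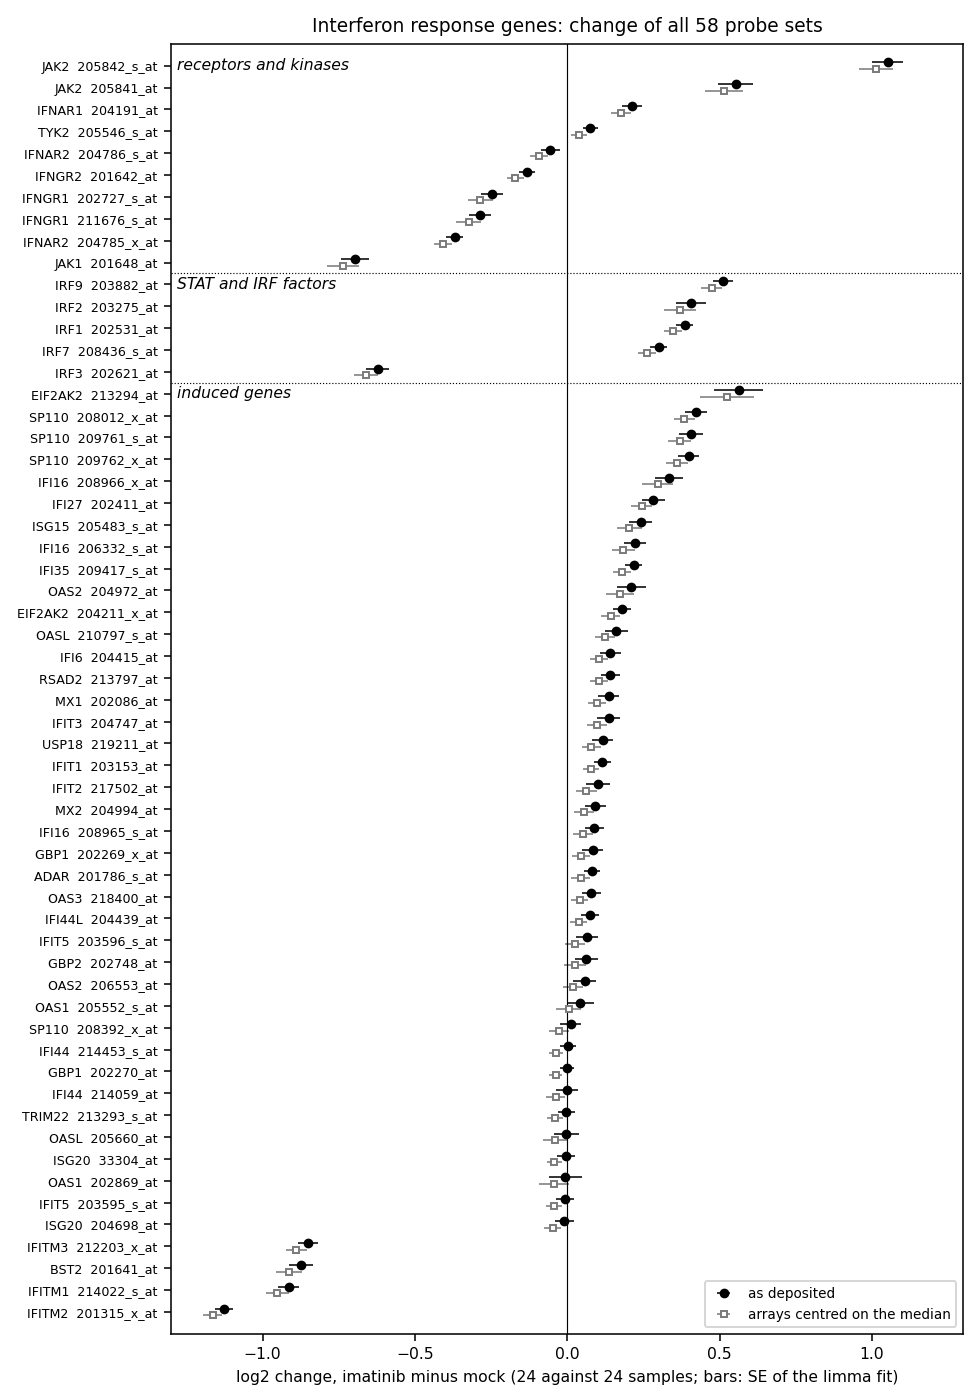
Log2 change, imatinib minus mock, of the 58 probe sets in the combined fit of 24 against 24 samples, grouped by role, with filled circles for values as deposited, open squares for centred arrays and bars for the SE. JAK2 lies farthest right at 1.05 and IFITM2 farthest left at -1.13, while most induced genes lie near 0.

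Of the 7 receptor and kinase genes, 3 rose and 4 fell by their brightest probe set, and 2 rose and 4 fell after centring. For comparison, 41.6% of all genes rose and 27.1% fell, and 30.5% did each after centring. The kinase gene JAK2 had 2 probe sets. In set F the brighter one read 8.82, 8.79 and 9.20 in imatinib samples, against 7.88, 7.74 and 7.60 in mock samples. In set E, where the difference was smallest, it read 7.25, 6.71 and 6.96 in imatinib samples, against 6.24, 6.25 and 6.32 in mock samples. Every imatinib sample lay above every mock sample of its set in all 8 sets. JAK2 averaged 8.95 in imatinib samples and 7.89 in mock samples. It rose by 1.05 ± 0.05 on the log2 scale, which is 2.07-fold (limma adjusted p = 4.93e-24, and 3.14e-21 centred; here and below ± is the SE of the combined fit). It was called in each of the 8 sets fitted alone. It was the only member to rise at least 2-fold, which 1.49% of all probe sets did. The dimmer JAK2 probe set rose by 0.55 ± 0.06 and was called in 7 sets. In set C it read 5.08, 5.10 and 5.07 in imatinib samples, against 4.95, 5.08 and 5.03 in mock samples, which overlap.

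JAK1, the kinase shared by both receptors, went the other way. In set E its probe set read 7.37, 6.86 and 6.70 in imatinib samples, against 8.05, 7.90 and 7.88 in mock samples. In set F, with the smallest difference, it read 7.91, 7.45 and 7.91 in imatinib samples, against 8.27, 8.23 and 8.25 in mock samples. No set had overlapping values. JAK1 averaged 8.11 in imatinib samples and 8.80 in mock samples and fell by 0.70 ± 0.05, its level being 1.62-fold higher in mock cells (limma adjusted p = 2.75e-18), with a call in all 8 sets. TYK2, the kinase bound to IFNAR1, had a change of 0.08 ± 0.02 that passed as deposited (limma adjusted p = 0.00739) but not after centring (0.221).

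The receptor genes split within the type I receptor by their brightest probe sets. IFNAR2, a chain of that receptor, read 6.84, 6.70 and 6.78 by its brighter probe set in imatinib samples of set C, against 7.32, 7.26 and 7.19 in mock samples. In set H it read 7.91, 7.81 and 8.00 in imatinib samples, against 8.09, 8.07 and 8.23 in mock samples. Imatinib lay below mock without overlap in all 8 sets, and IFNAR2 fell by 0.37 ± 0.03 (limma adjusted p = 7.95e-16), with a call in 6 sets. The dimmer IFNAR2 probe set missed the threshold as deposited, at -0.06 (limma adjusted p = 0.111), and passed it after centring, at -0.09 (0.00593). IFNAR1, the other chain, rose by 0.21 ± 0.03 in the combined fit, at levels under the median probe set, and was called in 4 sets. Both chains of the gamma receptor fell: IFNGR1 by 0.25 ± 0.04 and, in its other probe set, by 0.29 ± 0.04, and IFNGR2 by 0.13 ± 0.03. IFNGR2 was called in 1 set alone, and its call was lost after quantile normalization within sets.

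**Figure D2:**
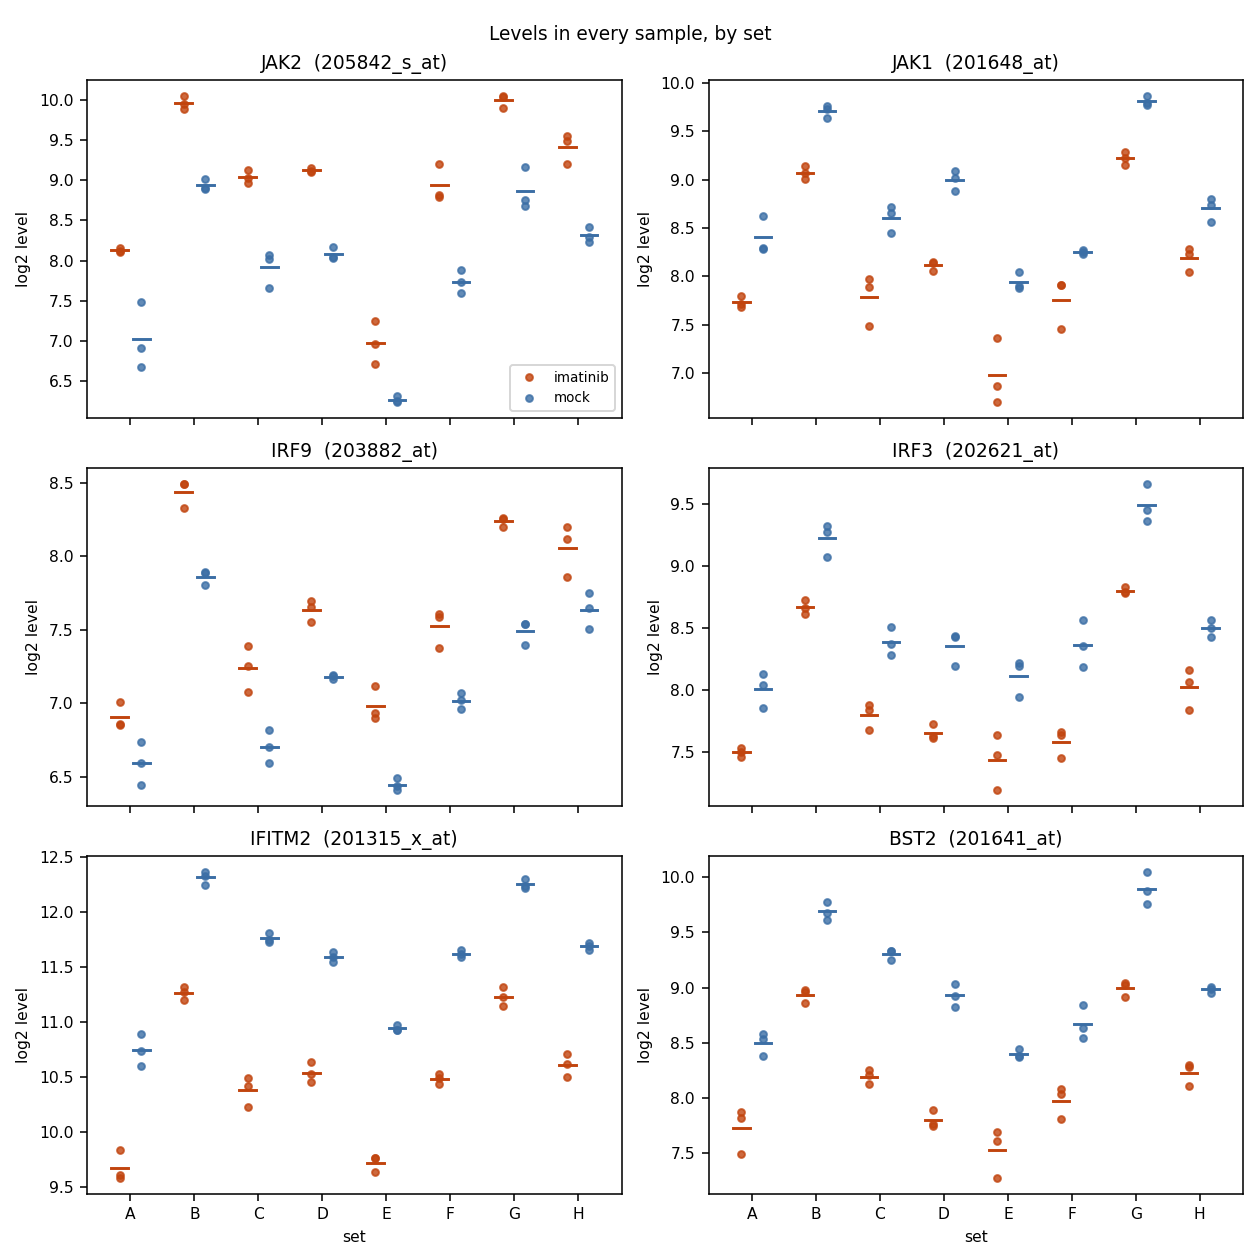
Log2 level in every sample for 6 members, 1 panel per probe set, with sets A to H along the x axis, imatinib samples in orange left of mock samples in blue, and a line at each mean of 3. In all 6 panels the imatinib and mock samples of a set do not overlap: JAK2 and IRF9 are higher and JAK1, IRF3, IFITM2 and BST2 lower after imatinib.

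Of the 5 measured IRF genes, 4 rose and 1 fell, as deposited and centred, beside 41.6% and 27.1% of all genes as deposited and 30.5% in each direction centred. IRF9, the DNA-binding partner of the STAT proteins, read 8.26, 8.20 and 8.26 in imatinib samples of set G, against 7.54, 7.54 and 7.39 in mock samples. In set A it read 6.86, 7.01 and 6.85 in imatinib samples, against 6.73, 6.60 and 6.44 in mock samples. The groups did not overlap in any set. IRF9 averaged 7.63 in imatinib samples and 7.12 in mock samples, rose by 0.51 ± 0.03, or 1.43-fold (limma adjusted p = 1.12e-18), and was called in all 8 sets. IRF1, an activator induced through the gamma-activated site, read 7.74, 7.82 and 7.72 in imatinib samples of set G, against 7.17, 7.39 and 7.17 in mock samples. In set F it read 6.93, 6.97 and 6.85 in imatinib samples, against 6.59, 6.67 and 6.76 in mock samples. IRF1 rose by 0.39 ± 0.03 (limma adjusted p = 1.86e-16), without overlap in all 8 sets and with a call in 6.

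IRF3, the latent factor that switches on the interferon beta gene after viral RNA is sensed, was the IRF that fell. It read 7.63, 7.45 and 7.66 in imatinib samples of set F, against 8.18, 8.35 and 8.56 in mock samples. In set H, with the smallest difference, it read 7.84, 8.16 and 8.07 in imatinib samples, against 8.42, 8.50 and 8.56 in mock samples. All 8 sets were called and none overlapped, and IRF3 fell by 0.62 ± 0.04, its level being 1.54-fold higher in mock cells (limma adjusted p = 3.64e-20). IRF7, the inducible relative of IRF3 that amplifies type I interferon, rose by 0.30 ± 0.03 and was called in 5 sets. IRF2, which binds the same element as IRF1 and often opposes it, rose by 0.41 ± 0.05. In set C IRF2 lay between 5.63 and 6.29 in imatinib samples and between 5.77 and 6.13 in mock samples, and the groups overlapped, while 6 other sets were called.

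Among the 30 measured induced genes, 19 rose, 4 fell and 7 did not pass by their brightest probe set, against 41.6% of all genes higher and 27.1% lower. After centring 13 rose and 4 fell, against 30.5% in each direction. The 4 that fell were 3 neighbours on chromosome 11, IFITM1, IFITM2 and IFITM3, and BST2 on chromosome 19. IFITM proteins sit in membranes and hinder the fusion of enveloped viruses, and BST2, or tetherin, holds budding virus at the cell surface. The promoters of IFITM1, IFITM3 and BST2 are shown here because they hold the letters of the interferon response and their genes fell. Beside them stand promoters of some members that rose and also hold a match. They are the RefSeq windows of GRCh38.p14, from 250 bases before to 50 bases after the start of the gene, 5′ to 3′ on the strand of the gene. Capitals mark each match, on either strand, to the core of the interferon-stimulated response element, here GAAA, any 2 bases and GAAA again, or to the gamma-activated site, here TTC, any 3 bases and GAA.
IFITM1 (chr11:313790-314089, plus strand): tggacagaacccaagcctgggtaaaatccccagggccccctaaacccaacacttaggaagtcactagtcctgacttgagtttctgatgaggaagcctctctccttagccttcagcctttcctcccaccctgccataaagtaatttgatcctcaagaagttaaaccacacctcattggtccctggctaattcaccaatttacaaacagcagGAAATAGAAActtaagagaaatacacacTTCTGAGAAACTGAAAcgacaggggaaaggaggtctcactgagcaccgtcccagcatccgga
IFITM3 (chr11:320811-321110, minus strand): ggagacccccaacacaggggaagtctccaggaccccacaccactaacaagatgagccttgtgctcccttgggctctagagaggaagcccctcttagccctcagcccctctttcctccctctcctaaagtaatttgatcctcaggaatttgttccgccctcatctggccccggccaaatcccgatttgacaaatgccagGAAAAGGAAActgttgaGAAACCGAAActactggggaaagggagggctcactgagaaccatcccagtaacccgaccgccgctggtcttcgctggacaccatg
BST2 (chr19:17405581-17405880, minus strand): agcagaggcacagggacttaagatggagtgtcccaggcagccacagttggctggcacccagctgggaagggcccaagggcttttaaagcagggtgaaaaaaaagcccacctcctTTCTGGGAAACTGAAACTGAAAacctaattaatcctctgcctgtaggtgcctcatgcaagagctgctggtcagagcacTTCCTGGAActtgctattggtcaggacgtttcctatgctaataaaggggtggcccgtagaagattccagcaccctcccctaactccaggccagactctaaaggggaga
ISG15 (chr1:1013247-1013546, plus strand): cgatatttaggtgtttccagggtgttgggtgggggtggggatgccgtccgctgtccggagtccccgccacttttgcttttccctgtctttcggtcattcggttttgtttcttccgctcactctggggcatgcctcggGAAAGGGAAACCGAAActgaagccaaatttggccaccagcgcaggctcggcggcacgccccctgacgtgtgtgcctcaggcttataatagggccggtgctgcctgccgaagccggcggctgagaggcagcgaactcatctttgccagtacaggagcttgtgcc
EIF2AK2 (chr2:37156931-37157230, minus strand): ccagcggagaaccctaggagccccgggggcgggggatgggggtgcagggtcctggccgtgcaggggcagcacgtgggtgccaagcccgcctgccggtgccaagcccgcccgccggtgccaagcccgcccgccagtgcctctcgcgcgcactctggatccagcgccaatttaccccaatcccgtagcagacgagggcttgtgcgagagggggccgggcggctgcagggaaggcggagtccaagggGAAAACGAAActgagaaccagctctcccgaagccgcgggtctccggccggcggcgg
IRF1 (chr5:132490724-132491023, minus strand): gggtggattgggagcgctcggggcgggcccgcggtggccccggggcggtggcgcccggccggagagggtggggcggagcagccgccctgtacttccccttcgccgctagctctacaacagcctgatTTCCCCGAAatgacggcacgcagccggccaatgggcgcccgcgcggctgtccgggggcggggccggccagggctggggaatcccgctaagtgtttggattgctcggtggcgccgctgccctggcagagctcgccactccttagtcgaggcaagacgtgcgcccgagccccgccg
IRF9 (chr14:24161015-24161314, plus strand): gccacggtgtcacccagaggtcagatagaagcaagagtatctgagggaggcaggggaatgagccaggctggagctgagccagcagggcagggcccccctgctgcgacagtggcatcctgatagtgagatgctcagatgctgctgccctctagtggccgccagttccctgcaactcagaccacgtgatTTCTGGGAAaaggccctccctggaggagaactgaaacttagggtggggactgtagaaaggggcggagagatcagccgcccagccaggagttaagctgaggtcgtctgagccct

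In these windows IFITM1, IFITM3, BST2 and ISG15 each hold 2 matches to the response element core and EIF2AK2 holds 1. In BST2 and ISG15 the matches overlap each other, and in IFITM1 and BST2 a match to the gamma-activated site overlaps a core match. IRF1 and IRF9 hold 1 gamma-activated site each. No window was matched for IFITM2, and the windows of JAK2 and IFI16, which rose, held neither match. Of the 44 members, 32 matched the RefSeq promoters by symbol, and 17 of them (53.1%) held a core match in at least 1 window, against 4.38% of 27305 genes. A gamma-activated site match was held by 9 of the 32 (28.1%), against 9.38% of genes. Counted by window, 3.57% of 35116 windows held the core and 7.66% the gamma-activated site. Members were picked as interferon genes, so a high share of matches describes that choice and is no finding. Of the 17 members with a core match, all measured, 11 rose, 3 fell and 3 did not pass, and after centring 8 rose and 3 fell. Of 13 measured members without one, 9 rose and 3 fell, and after centring 7 rose and 3 fell. Members with and without the core thus both went either way, with a median change of 0.08 with it and 0.21 without it, and whether they differ was not tested. Of all genes 41.6% rose and 27.1% fell, and 30.5% did each after centring.

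IFITM2 fell farthest of all members. It read 10.50, 10.42 and 10.23 in imatinib samples of set C, against 11.73, 11.81 and 11.75 in mock samples. In set G it read 11.23, 11.15 and 11.32 in imatinib samples, against 12.24, 12.30 and 12.22 in mock samples. IFITM2 averaged 10.49 in imatinib samples and 11.62 in mock samples and fell by 1.13 ± 0.03, its level being 2.18-fold higher in mock cells (limma adjusted p = 1.75e-34, and 5.35e-33 centred). It was the only member to fall at least 2-fold, which 2.14% of all probe sets did. IFITM1 read 10.90, 10.82 and 10.70 in imatinib samples of set E, against 12.04, 11.90 and 11.95 in mock samples. IFITM1 fell by 0.91 ± 0.03 in the combined fit. IFITM3 read 10.20, 9.95 and 10.02 in imatinib samples of set E, against 11.20, 11.14 and 11.10 in mock samples, and fell by 0.85 ± 0.03. All 3 genes passed as lower in all 8 sets fitted alone, with changes between -1.38 and -0.68, and no set had overlapping values. The 3 genes are very similar in sequence, and the names of their probe sets carry the suffixes Affymetrix gives to probes that match several transcripts, so the signal of 1 gene may enter that of another.

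BST2 read 7.89, 7.74 and 7.76 in imatinib samples of set D, against 9.03, 8.83 and 8.93 in mock samples. In set F, with the smallest difference, it read 7.81, 8.03 and 8.08 in imatinib samples, against 8.54, 8.63 and 8.84 in mock samples. BST2 averaged 8.17 in imatinib samples and 9.05 in mock samples and fell by 0.87 ± 0.04, its level being 1.83-fold higher in mock cells (limma adjusted p = 4.67e-25), with a call in all 8 sets. Taken with JAK1 and IRF3, 6 member probe sets were called lower in all 8 sets, or 10.3%, against 6.57% of all probe sets. Without overlap in all 8 sets were 7 that fell, the seventh being IFNAR2, against 8.6% of all probe sets, and 5 that rose (JAK2, IRF9, IRF1 and 2 of SP110), against 5.43%. JAK2 and IRF9 were the only members called higher in all 8 sets, or 3.45%, against 3.94% of all probe sets. These shares lie within a few percent of the background. The change had the same sign in all 8 sets for 28 members, against 39% of all probe sets.

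SP110, a nuclear body protein, and IFI16, a sensor of DNA, rose most among the induced genes by their brightest probe sets. SP110 read 7.43, 7.62 and 7.48 by its brightest probe set in imatinib samples of set G, against 6.92, 6.96 and 6.73 in mock samples. In set D it read 6.24, 6.27 and 6.36 in imatinib samples, against 6.16, 5.90 and 5.94 in mock samples. It rose by 0.42 ± 0.04 (limma adjusted p = 8.69e-15), with a call in 6 sets. A pair of further SP110 probe sets rose by 0.41 and 0.40, and the last, at 0.01, did not pass (limma adjusted p = 0.784). IFI16 read 6.59, 6.64 and 6.67 by its brightest probe set in imatinib samples of set G, against 5.86, 6.24 and 5.45 in mock samples. In set C the groups overlapped, at 4.59, 4.68 and 4.47 in imatinib samples, against 4.48, 4.44 and 4.60 in mock samples. IFI16 rose by 0.33 ± 0.05, at levels under the median probe set, and its other probe sets rose by 0.22 and 0.09, the last only without centring.

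EIF2AK2, the kinase PKR that stops translation on viral RNA, rose by amounts that depended on the probe set. Its brighter one rose by 0.18 ± 0.03 and was called in 4 sets. The dimmer one rose by 0.56 ± 0.08 and was called in 5. In set F the dimmer probe set read 7.53, 6.94 and 7.58 in imatinib samples, against 6.55, 6.62 and 5.97 in mock samples. In set C it read 6.53, 6.87 and 6.33 in imatinib samples, against 6.14, 6.70 and 6.73 in mock samples, which overlap.

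The other induced genes rose little or did not pass. ISG15, a ubiquitin-like modifier, read 7.32, 7.25 and 7.32 in imatinib samples of set A, against 6.91, 6.97 and 6.92 in mock samples, and rose by 0.24 ± 0.04 in the combined fit with a call in 3 sets. IFI27 rose by 0.28 ± 0.04, IFI35 by 0.22 ± 0.03 and the dimmer probe set of OAS2, which makes the activator of RNase L, by 0.21 ± 0.05. The brighter OAS2 probe set did not pass, at 0.06. Rises between 0.12 and 0.16 that passed as deposited and centred were those of IFI6, RSAD2, MX1, IFIT3, USP18, IFIT1 and the brighter OASL probe set. ADAR, MX2, IFIT2, OAS3, IFI44L and the brighter GBP1 probe set passed only as deposited. These changes are near the members' median. IFI44, IFIT5, ISG20, OAS1, GBP2 and TRIM22 passed in no probe set of the combined fit, with changes between -0.01 and 0.06. Of the 58 probe sets 34 lay under the median level, where a change may be missed; 19 of them rose and 0 fell, against 38.5% and 11.6% of all such probe sets (limma). By limma on centred arrays 14 of the 34 rose and 1 fell, against 22.5% and 16.5%. All 24 others were called, 14 higher and 10 lower, against 40.2% and 40.1% of all probe sets at such levels and 80.3% in all.

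Each set was also fitted alone, with 3 imatinib against 3 mock samples. In set A 14 probe sets rose and 7 fell, against 13.6% and 14.7% of all probe sets. In set B 24 rose and 10 fell, against 27.8% and 19.9%. In set C 9 rose and 10 fell, against 18.9% and 20.1%. The members' share of rises was 24.1% in set A, 41.4% in B and 15.5% in C. In set D 20 rose and 9 fell, against 20.9% and 18%; without imatinib replicate 3 of that set 10 rose, without mock replicate 3 it was 12 and without imatinib replicate 1 it was 13. In set E 5 rose and 6 fell, against 7.24% and 12.1%. That count of rises became 14 without imatinib replicate 1, 8 without imatinib replicate 2, 3 without imatinib replicate 3 and 2 without mock replicate 2. The number of rises in sets D and E thus depended on which samples were kept, as it did in set H. The shares of all probe sets in these smaller fits were not counted, so the shifts are not shown to be particular to the members. In set F 5 rose and 7 fell, against 7% and 9.47%. In set G 16 rose and 7 fell, against 11.5% and 16%. In set H 16 rose and 7 fell, against 12.3% and 11.8%, with 9 rises without mock replicate 2 and 10 without mock replicate 1 or imatinib replicate 2. After centring each array, set A gave 14 rises and 8 falls, against 12.6% and 15.6% of all probe sets. Set B gave 14 and 11, against 14.9% and 24.1%, and set C 6 and 10, against 13.6% and 22.5%. Set D gave 9 and 9, against 11.5% and 21%, and set E 2 and 9, against 5.26% and 12.6%. The rises thus became fewer in sets B to E. Set F gave 6 and 6, against 6.47% and 8.2%. Set G gave 16 and 7, against 10.4% and 16.1%, and set H 15 and 7, against 10.4% and 12.4%, so that set H had 1 rise fewer than as deposited. As deposited, the members' share of rises was 34.5% in D, 8.62% in each of E and F, and 27.6% in each of G and H. The shares of C, E and F were close to the background, and falls outnumbered rises in the same sets. No member probe set was called higher in a set and lower in another. Over the sets the median change of the members ran between 0.01 in set F and 0.15 in set D, and between 0.0037 in set C and 0.11 in set G after centring.

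**Figure D3:**
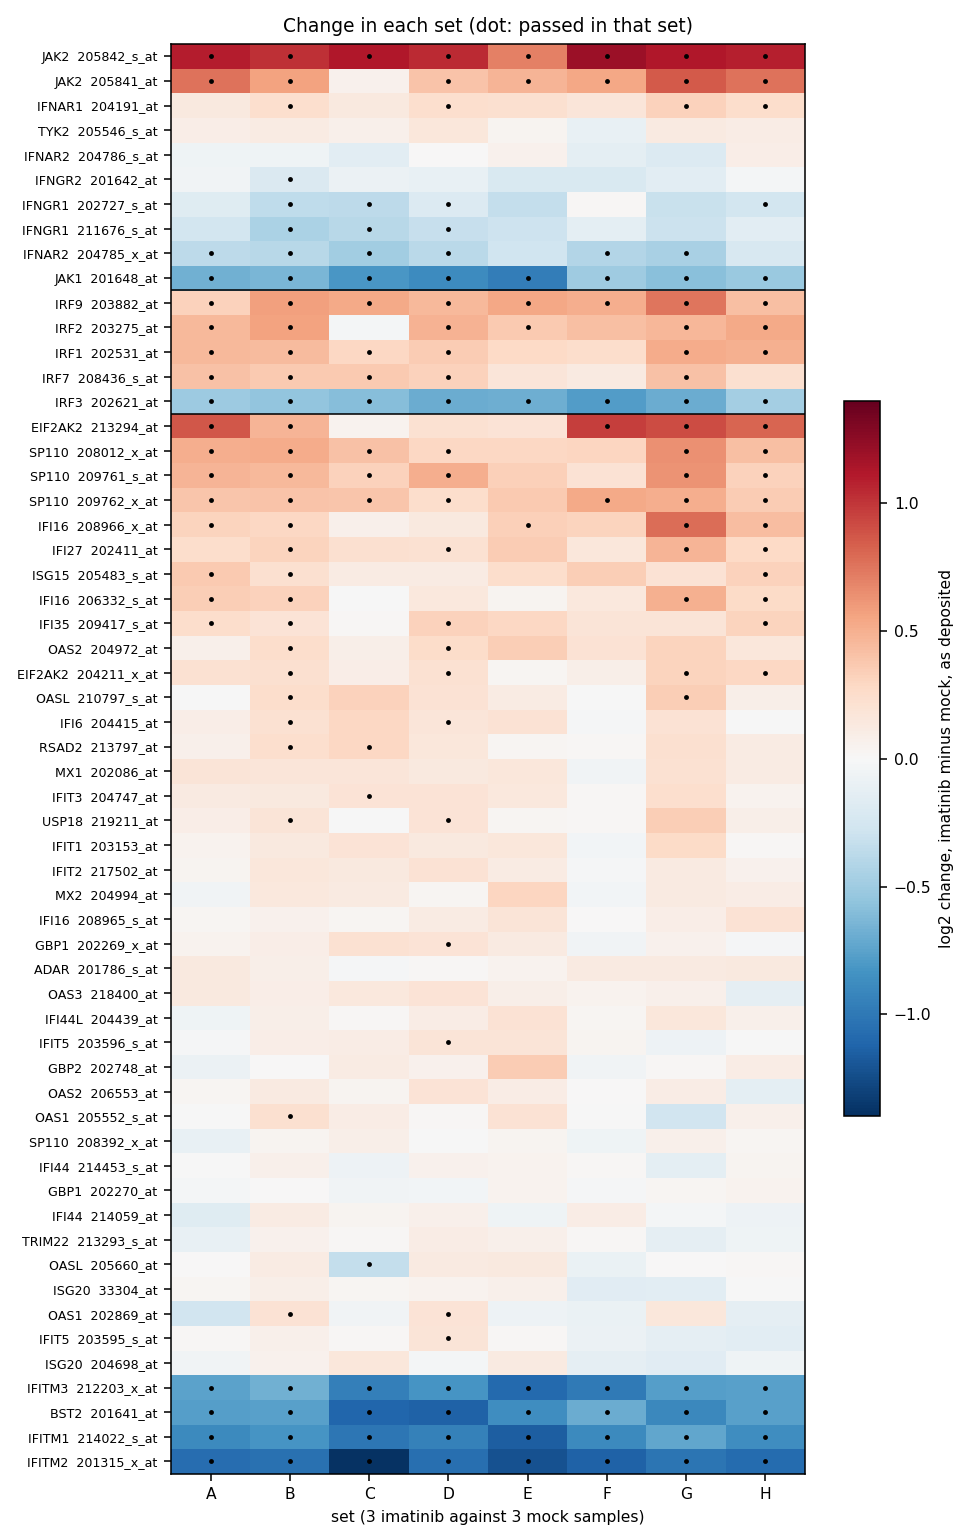
Log2 change, imatinib minus mock, of each of the 58 probe sets (rows, grouped by role) in sets A to H (columns), red for higher and blue for lower, with a dot where the set fitted alone passed. JAK2 and IRF9 carry dots in all 8 columns among the rises, and JAK1, IRF3, BST2 and the IFITM genes among the falls.

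The size of the change was tested between sets. It differed for 2 of the 58 probe sets, or 3.45%, against 7.2% of all probe sets (limma F test of the set-by-treatment terms). These were the dimmer EIF2AK2 probe set (adjusted p = 0.0420) and the IFI16 probe set of middle brightness (0.0346). Without mock replicate 1, mock replicate 3 or imatinib replicate 3 of every set 0 passed, and without imatinib replicate 1 it was 4. In set C, EIF2AK2 stood at 0.05 and IFI16 at -0.0016 by these probe sets, IRF2 at -0.03 and the dimmer JAK2 probe set at 0.06, and none passed there. The brighter JAK2 probe set rose by 1.12 in the same set. IRF2 and the dimmer JAK2 probe set were chosen after their values were seen. For both, the test between sets did not pass (adjusted p = 0.216 and 0.0775, limma).

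**Figure D4:**
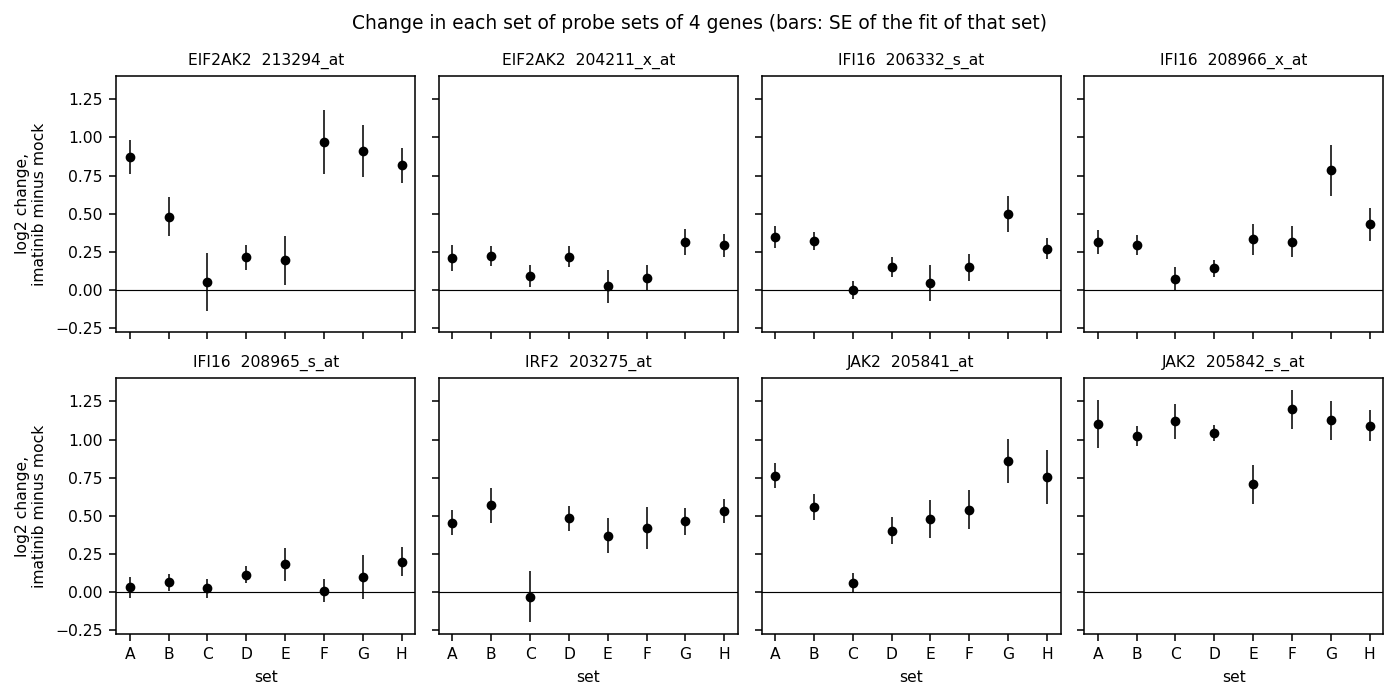
Log2 change, imatinib minus mock, in each set for 8 probe sets of EIF2AK2, IFI16, IRF2 and JAK2, with the SE of the fit of that set. Values in set C lie between -0.03 and 0.09 in 7 of the 8 panels, the exception being the brighter JAK2 probe set at 1.12. These genes were picked by the test between sets or after their values were seen, and do not stand for all members. IFITM2, not drawn here, had its largest fall in set C, at -1.38.

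Further genes of the pathway that are not members were counted from a list of 63, of which 49 were measured. Of these 28 rose and 9 fell by the brightest probe set, and after centring 20 rose and 10 fell, beside the shares of all genes given above. Their median change was 0.09, or 0.05 centred. Among 11 measured genes of nucleic acid sensing 7 rose and 1 fell, and among 30 further induced genes 19 rose and 5 fell. The 7 measured brakes on the receptor gave 1 rise and 3 falls. LY6E, a membrane protein induced by interferon, averaged 7.70 in imatinib samples and 8.90 in mock samples and fell by 1.20 ± 0.04. PARP12, an ADP-ribosyltransferase, averaged 8.35 in imatinib samples and 7.37 in mock samples and rose by 0.98 ± 0.04. PTPN2, a phosphatase that removes phosphate from JAK1 and STAT proteins, rose by 0.70 ± 0.04, and UBE2L6, the enzyme that conjugates ISG15, rose by 0.65 ± 0.03. These 4 had the largest changes of the list, each with the same sign in all 8 sets (limma adjusted p between 7.53e-30 and 2.27e-22).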

How the data were processed

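Expression was given as log2 values, deposited by the authors for 22283 probe sets in each sample; the log2 scale was inferred from their range, 2.41 to 14.9. How background, probe summary and normalization were handled is not given in the sources used. No further scaling was applied, and 68 control probe sets were dropped. Gene symbols came from GEO's platform annotation, brought up to date by gene number (RefSeq, GRCh38.p14).

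Members and lists were chosen with earlier results of these data known. The combined fit used limma 3.58.1 under R 4.3.3 (two-sided moderated test) and held the set as a factor. Each set was also fitted alone, and interaction terms of set and treatment served to compare sets. P-values were adjusted over all 22215 probe sets with Benjamini-Hochberg, threshold 0.05. All fits were run also on arrays centred on their median, and were tested on simulated data, where the set-by-treatment test made more false calls than its threshold allows. The brightest probe set of a gene has the highest mean over all samples. Sample values were printed for members whose brightest probe set passed on both scales, changed by 0.3 or more and had the same sign in all 8 sets (12 genes, in 1 or 2 sets each, by the largest or smallest change), and for IRF2, EIF2AK2, ISG15 and the dimmer JAK2 probe set, chosen after their values were seen. Other alternatives were quantile normalization within sets, a filter on dim probe sets, a replicate block, 1 difference per set and samples or sets left out. No proteins were printed. The number of arrays limits the precision. Promoter sequences come from RefSeq. Figures were drawn with matplotlib 3.10.9.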

Additional observations from a re-analysis of the deposited data

Results flagged for a closer look

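For 2 probe sets the change after imatinib differed between sets by the limma test of the set-by-treatment terms. The dimmer EIF2AK2 probe set had an adjusted p = 0.0420 in that test, with changes between 0.05 in set C and 0.97 in set F. The IFI16 probe set of middle brightness had an adjusted p = 0.0346, with changes between -0.0016 in set C and 0.50 in set G. Neither call held in every setting. On centred arrays the limma adjusted p-values were 0.0607 for EIF2AK2 and 0.0429 for IFI16, and after quantile normalization within sets 0.0338 for EIF2AK2 and 0.0723 for IFI16. With arrays weighted by the spread of their set, an alternative chosen after seeing the data, they were 0.0406 for EIF2AK2 and 0.0327 for IFI16 (limma). On simulated data without differences between sets this test made more calls than its threshold allows. In further runs 1 replicate number of 1 treatment was left out of every set at once. The adjusted p-values then ran between 0.0203 and 0.508 for EIF2AK2 and between 0.0275 and 0.184 for IFI16 (limma). The brighter EIF2AK2 probe set did not pass this test (limma adjusted p = 0.315), nor did the brightest one of IFI16 (0.0525).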

How the results depend on the processing

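In the combined comparison the number of member probe sets that fell was 9 to 11 in all 21 settings run, and the number that rose 23 to 34, except for 14 when dim probe sets were left out, where 24 members were tested. Of 43 called probe sets 32 kept their call and direction in every setting that tested them, and 0 reversed. The settings include 1 difference per set (28 rose, 10 fell) and the same on centred arrays (23 rose, 10 fell), of which the centred one was chosen after seeing the data. Without any single set 28 to 34 rose and 10 to 11 fell, and without a replicate number 28 to 33 rose and 10 fell. In sets fitted alone, leaving out dim probe sets, so that fewer were tested, gave 8 rises for set A, 10 for B, 5 for C, 7 for D, 3 for F, 8 for G and 9 for H. Centred arrays gave 14 rises in B, 9 in D and 2 in E. With the spread shared by all sets 15 rose in B, 10 in D, 13 in E and 10 in F, and 10 fell in E. With a sample left out in turn the rises ran between 10 and 19 in D, 2 and 14 in E and 9 and 14 in H. For single sets, shares of all probe sets were not counted with dim probe sets left out, the spread shared or a sample left out. These counts are therefore not shown to be particular to the members. The set-by-treatment test, with 2 members, gave 1 on centred arrays, 1 after quantile normalization and 1 without dim probe sets. It gave between 0 and 4 without 1 replicate number of 1 treatment in every set. The cause was not tested. Equal replicate numbers did not pair the samples: deviations of 24 such pairs correlated between -0.52 and 0.49, with 7 over 0.1, and 10 of 24 imatinib samples correlated best with the mock sample of their own number. With a replicate block 33 rose and 10 fell, and the set-by-treatment test gave 0.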
